A study of Drosophila melanogaster with 14 samples.

Results

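The vacuolar H+-ATPase (V-ATPase) is the rotary proton pump that acidifies lysosomes, endosomes and secretory and synaptic vesicles. Its peripheral V1 sector hydrolyses ATP in a ring of A and B subunits, and its membrane-embedded V0 sector carries protons past the a subunit on a rotating ring of c subunits. In neurons the resulting proton gradient powers the loading of transmitters into synaptic vesicles and the activity of acid hydrolases in lysosomes. The fly genome encodes several subunits by more than 1 gene, so a cell type is described both by how much pump mRNA it holds and by which paralogue it uses. The *Vha* genes were taken as all protein-coding genes whose symbol begins with Vha, which gave 33 of the 13792 genes quantified. They code for 8 subunits of V1, 5 of V0 and the accessory protein Ac45, and all 33 had at least 1 transcript in the quantification (74 transcripts in total).

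RNA had been sequenced from PDF+ ventral lateral neurons (LNvs), the circadian pacemaker neurons of the fly brain, which were labelled with membrane GFP under *Pdf* control and sorted from dissected brains of female flies in a w1118 background kept at 25 °C on 1.5x sucrose-yeast food (condition HC25). Flies carried *Atx2* RNAi (labelled Atx2 KD), driven in the PDF neurons to lower the RNA-binding protein Ataxin-2, or the *tyf(e)* mutant allele of *tyf*, which codes for a partner of Ataxin-2 in translation, or were wild type. *Atx2* RNAi LNvs had 2 libraries each at ZT0 and ZT12 (zeitgeber time, with lights on at ZT0), *tyf* LNvs had 2 each at ZT4 and ZT16, and wild type had 1 at each of ZT24, ZT2, ZT4, ZT12, ZT14 and ZT16. *Atx2* RNAi was compared with wild type of ZT24 and ZT2 at dawn and of ZT12 and ZT14 at dusk, and *tyf* with wild type of ZT2 and ZT4 in the day and of ZT14 and ZT16 at night. Wild type of ZT2 and of ZT14 therefore served in both comparisons. Wild-type titles differ in form from mutant titles, and the labels do not say whether these libraries were prepared together. Genotype and any difference in preparation therefore cannot be told apart. The study names its dawn controls as ZT0 and ZT2, and taking the library labelled ZT24 as ZT0 is an assumption made here. The labels do not say that libraries came from separate cultures of flies, so p-values measured only the spread between libraries. Within a wild-type group each library came from a different time, so that spread also holds change between times.

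The libraries held 5216112 to 23507263 estimated counts. *Atx2* itself had normalized counts of 209 to 464 in *Atx2* RNAi and 1195 to 2317 in wild type, and *tyf* had 352 to 685 in *tyf* mutants and 3204 to 9701 in wild type, so each was low in the libraries labelled for it. *tyf* was also low at ZT0 in *Atx2* RNAi, with 1959 and 2375, where it was called lower than in wild type (-1.65, edgeR BH-adjusted p = 0.037), and had 6276 and 8333 at ZT12. The LNv marker *Pdf* made up 19.3% to 34.8% of all transcript abundance in TPM. TPM is counts divided by transcript length and brought to the same total in each library. The other LNv markers ranged from 2.81 TPM (*vri*, wild-type ZT4) to 1402 TPM (*cry*, wild-type ZT24). The 7 glial markers summed to 20.6 to 43.4 TPM in wild type, 11.2 to 34.8 in *Atx2* RNAi and 113 to 294 in *tyf*, where the *tyf* ZT4 replicate 1 library was the highest. The 5 muscle markers stayed at or below 11.4 TPM in sum. The 5 photoreceptor markers reached 216 TPM in *tyf* and 63.6 in wild type. The 5 haemocyte markers summed to 74.7 to 105 TPM in *Atx2* RNAi, at most 54.3 in *tyf* and 47.4 to 63.6 in wild type, nearly all of it *Pxn*, while the defining markers *Hml* and *srp* were under 1 TPM in every library. The 6 fat body markers summed to 11.6 to 110.2 TPM in *Atx2* RNAi, 27.2 to 73.4 in *tyf* and 7.39 to 109.8 in wild type.

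The gene with the highest mean TPM of each subunit was taken as its leading gene, so each subunit has 1 by definition. Subunits B, C, E, G and H have only a single gene. The 14 leading genes had mean levels of 137 to 915 TPM over the 14 libraries, and none fell below 87.0 TPM in any library, whereas 16 of the other 19 members had mean levels below 10 TPM. Levels are compared between genes in TPM, which divides by transcript length. Every leading gene stood above at least 95.2% of all genes by mean TPM.

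In the V1 sector, *Vha68-1* supplied most mRNA for the catalytic A subunit, with 163 ± 54.6 TPM (SD, n = 14 libraries) and 98.2% ± 2.65 of the A subunit TPM. Means and SDs over the 14 libraries pool the 3 genotypes, so the SD also holds differences between genotypes. By genotype *Vha68-1* had 222 ± 17.9 TPM in wild type (n = 6), 119 ± 7.59 in *Atx2* RNAi and 119 ± 16.9 in *tyf* (n = 4 each). Its paralogue *Vha68-2* ranged from 0.205 to 14.8 TPM, and *Vha68-3*, which lies next to *Vha68-2* on chromosome 2L, had no library above 3 counts. The nucleotide-binding B subunit has a single gene, *Vha55*, at 228 ± 50.5 TPM. For the D subunit of the central rotor stalk, *Vha36-1* had 309 ± 97.8 TPM and 96.4% ± 5.2 of the subunit's TPM. The second D gene, *Vha36-3*, ranged from 0.271 to 57.0 TPM, while *Vha36-2* stayed at or below 0.643. The F subunit, which turns with D in the rotor, came from *Vha14-1* (409.6 ± 130.3 TPM, 99.8% ± 0.179 of its subunit), against at most 1.99 TPM of *Vha14-2*. The peripheral stalks that hold the ring in place are built from E and G. Their single genes *Vha26* (E) and *Vha13* (G) had 258 ± 105 and 838 ± 147 TPM. The C and H subunits join the stalks to the membrane sector. *Vha44* (C) had 164 ± 36.7 TPM and *VhaSFD* (H), whose product regulates the coupling of V1 to V0, had 182 ± 60.7 TPM.

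In the V0 sector, *Vha100-1*, the a subunit gene known from fly synapses, held 99.2% ± 1.01 of the a subunit TPM, at 137 ± 39.6 TPM. The 4 other a subunit genes had mean levels of 0.0904 to 0.54 TPM, and the highest value of any of them was 4.2 TPM, of *Vha100-2* in *tyf* ZT4 replicate 1. The c subunit mRNA came almost wholly from *Vha16-1* (697 ± 131 TPM, 99.9% ± 0.134 of the c subunit TPM). *Vha16-2*, *Vha16-3*, *Vha16-4* and *Vha16-5* had a highest single value of 2.14 TPM. The related c'' proteolipid came from *VhaPPA1-1* at 378 ± 62.7 TPM, and the d subunit, which links the ring to the rotor, from *VhaAC39-1* at 208 ± 70.4 TPM. The second genes *VhaPPA1-2* and *VhaAC39-2* reached at most 0.812 and 0.659 TPM, with no library above 3 counts. The 3-count level is the upper limit that a count of 0 allows, so these few reads are too few to give a level.

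Only for the small e subunit and for Ac45, which guides assembly and sorting of the pump, did a second gene take 10% or more of the TPM in the mean over the 14 libraries. *VhaM9.7-a* had 915 ± 246 TPM and *VhaM9.7-b* 205 ± 69.5, which was 18.5% ± 3.98 of the e subunit TPM. *VhaM9.7-c* followed at 1.92 to 13.2 TPM, and *VhaM9.7-d* had no library above 3 counts. *VhaAC45* had 391 ± 145 TPM and the related *VhaAC45RP* 160.0 ± 48.2, or 29.6% ± 5.59 of their joint TPM. The 15 members that were neither leading, second nor called in any comparison made up 0.0720% to 0.251% of the summed *Vha* TPM, and 10 of them stayed below 1 TPM in every library. Reads that match paralogues equally were divided among them by the authors' quantification, so the levels of the minor genes of a large family are uncertain. *Vha100-1*, *Vha100-4*, *Vha100-5*, *Vha16-2*, *VhaPPA1-2* and *Vha44* share exon sequence with a gene on the opposite strand, and the sources do not say whether reads were assigned by strand.

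**Figure D1:**
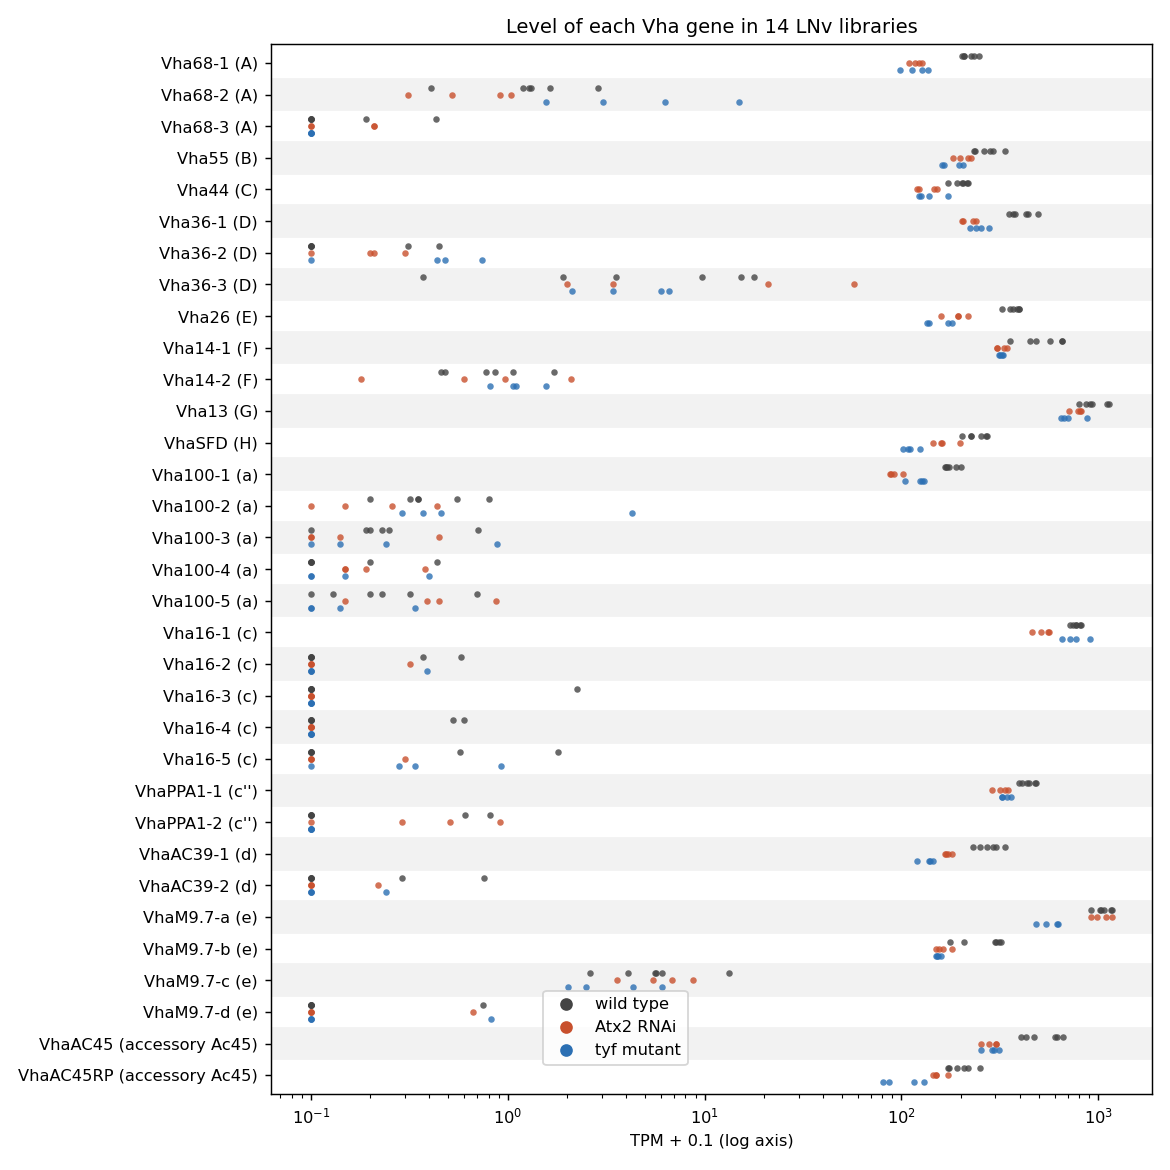
Level of each of the 33 *Vha* genes (rows, subunit in brackets) in the 14 libraries, as TPM + 0.1 on a log axis, with 1 point for each library and colours for genotype. The 14 leading genes and *VhaM9.7-b* and *VhaAC45RP* sit at 80.4 TPM or above in all libraries, *Vha36-3*, *Vha68-2* and *VhaM9.7-c* lie between, and most of the others are at or near 0.

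In wild type the order by mean TPM ran from *VhaM9.7-a* (1064 ± 95.5, SD, n = 6), *Vha13* (955 ± 134) and *Vha16-1* (771 ± 36.7) down to *Vha44* (201 ± 16.7) and *Vha100-1* (178 ± 13.5). Only 1 step within these 16 genes had ranges that did not overlap, that from *Vha16-1* to *VhaAC45* (533 ± 110.4). All other neighbours in the order overlapped over the 6 libraries. The next step down, from *Vha100-1* to *Vha36-3* (8.02 ± 7.34), also separated fully. Short and long transcripts both stood high in this order. The mean effective lengths of *VhaM9.7-a* and *Vha13* were 660 and 714 bases and that of *Vha16-1* was 2763 bases, while *VhaM9.7-b*, of 679 bases, came 11th. By library-scaled counts, without division by length, *Vha16-1* came first.

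Some second genes took different shares in different genotypes. *Vha36-3* took 1.85% ± 1.64 (SD, n = 6) of the D subunit TPM in wild type, 7.82% ± 8.83 (n = 4) in *Atx2* RNAi and 1.77% ± 0.832 (n = 4) in *tyf*. The *Atx2* RNAi mean was set by ZT12 (9.21% and 19.8%), since its ZT0 libraries (0.930% and 1.37%) lay inside the wild-type range of 0.0731% to 3.97%. *Vha68-2* took 0.625% ± 0.396 of the A subunit TPM in wild type and 4.75% ± 3.71 in *tyf*, with 9.73% in *tyf* ZT4 replicate 1. Among e subunit genes *VhaM9.7-b* took 19.9% ± 2.76 in wild type, 13.4% ± 1.6 in *Atx2* RNAi and 21.3% ± 2.24 in *tyf*, so that all 4 *Atx2* RNAi libraries (11.2% to 14.9%) lay below the lowest wild-type library (16.1%). *VhaAC45RP* took 35.2% ± 1.44 of the Ac45 TPM in *Atx2* RNAi and 27.9% ± 4.71 in wild type, and these ranges overlapped by 1 wild-type library at 33.5%. These shares carry no test, because each genotype mixes times.

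**Figure D2:**
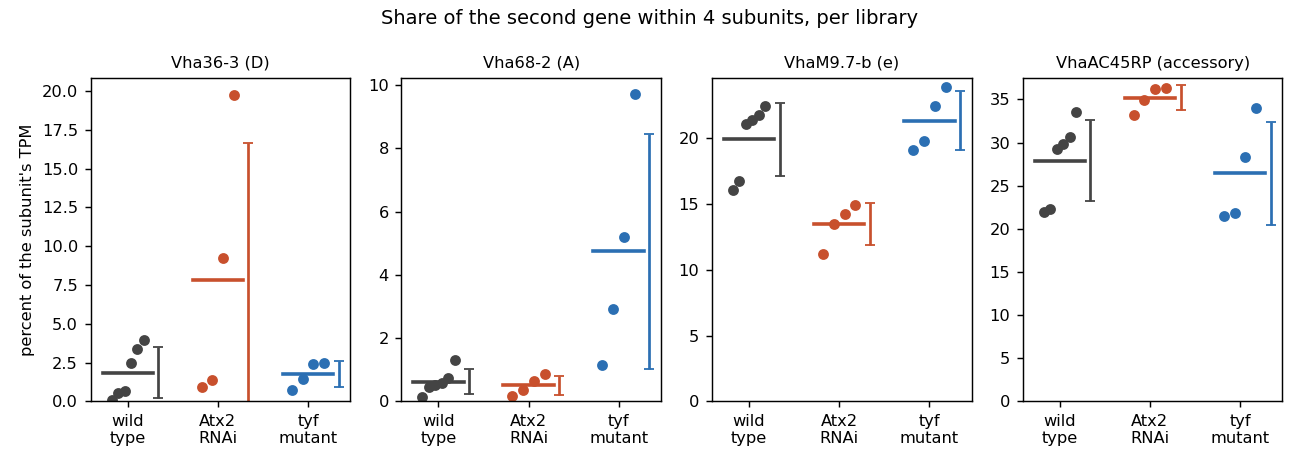
Share of the second gene in its subunit's TPM, in percent, with 1 point for each library, a bar at the mean and a whisker of ± SD (n = 6, 4 and 4; the axis starts at 0, so a whisker reaching below is cut there). *Vha36-3* reaches 19.8% in 1 *Atx2* RNAi library, *Vha68-2* is highest in the *tyf* mutant, and all 4 *VhaM9.7-b* shares of *Atx2* RNAi lie below those of wild type.

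The summed TPM of the *Vha* genes was 6115 to 7626 in wild type, 4714 to 5191 in *Atx2* RNAi and 4314 to 4700.1 in *tyf*, and all 8 mutant libraries lay below all 6 wild-type libraries. *Pdf* took 19.3% to 27.9% of the TPM in wild type, 26.3% to 31.7% in *Atx2* RNAi and 26.3% to 34.8% in *tyf*. With *Pdf* left out of the total the sums were 7824 to 9933, 6525 to 7141 and 6166 to 7187, still without overlap. Normalized counts align libraries on the bulk of genes by the trimmed mean of M-values (TMM) and are not divided by length. Their sums were closer: 54043 to 60464 in wild type, 45789 to 50936 in *Atx2* RNAi and 43507 to 56267 in *tyf*. *Atx2* RNAi lay below wild type and *tyf* overlapped it. Without division by length, long and abundant transcripts weigh more in these sums. *Vha16-1*, of 2763 bases, had 10533 to 12842 in wild type, 9008 to 10498 in *Atx2* RNAi and 10906 to 18425 in *tyf*. The parts of scaling and of length in the closer sums were not tested. The ratio of V1 to V0 TPM was 1.06 ± 0.082 in wild type (SD, n = 6), 0.933 ± 0.07 in *Atx2* RNAi (n = 4) and 0.972 ± 0.15 in *tyf* (n = 4), with overlapping ranges. In sorted pools, fewer LNvs among the cells and less RNA per LNv cannot be told apart.

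To ask which subunits changed with genotype, normalized counts were compared by edgeR's quasi-likelihood test with Benjamini-Hochberg (BH) adjustment over all genes tested, with calls made below an adjusted p of 0.05. In *Atx2* RNAi over both times, 5 of 19 members tested were lower and none was higher, against 16.4% of all 8643 genes called and 7.93% called lower. At ZT0 alone edgeR called 0 members (7.3% of all genes). There 4 of 19 members had an unadjusted p under 0.05, against 1997 of all 8643 genes. DESeq2 called 1 member at ZT0, and shares over all genes were not counted for DESeq2. At ZT12 alone it called 1, which was lower (6.83% of all genes, 3.6% lower). In *tyf* over both times, 6 of 22 members tested were lower and 1 was higher, against 15.2% of all 9503 genes called, 7.57% lower and 7.64% higher. At ZT4 edgeR called 0 members (4.3% of all genes), and at ZT16 it called 1, lower (6.22% of all genes, 3.28% lower). At ZT4 9 of 22 members had an unadjusted p under 0.05, against 1797 of all 9503 genes, and DESeq2 called 5 members. The median log2 difference of the members was -0.23 in *Atx2* RNAi and -0.17 in *tyf*, where that of all genes tested was -0.01 and -0.02. With 1 library left out the members' median ran from -0.30 (without ZT0 replicate 1) to -0.16 (without wild-type ZT12) in *Atx2* RNAi and from -0.33 (without ZT16 replicate 1) to -0.10 (without ZT16 replicate 2) in *tyf*. All libraries of *Atx2* RNAi lay below the 4 wild-type libraries they were compared with for 6 of 19 members (8.65% of all genes), and those of *tyf* for 7 of 22 (9.32%), and 1 member of 22, *Vha68-2*, lay above in *tyf* (9.7%). Markers of several kinds moved with these values. The summed TPM of the 5 pan-neuronal markers was 729.8 to 997 in *Atx2* RNAi, 1072 to 1179 in *tyf* and 1134 to 1564 in wild type, and 2 of them, the synaptic vesicle genes *nSyb* and *Syt1*, were called lower in *Atx2* RNAi. The haemocyte marker *Pxn* and the fat body marker *apolpp* were called higher in *Atx2* RNAi, 1 of 3 and 1 of 5 tested. In *tyf* 5 of 7 glial markers were called higher over both times, and 2 of 5 photoreceptor markers (*Arr2* and *ninaE*) at ZT16. Mitochondrial transcripts took 8.45% to 10.5% of the TPM in *tyf*, 15.0% to 21.7% in *Atx2* RNAi and 12.7% to 17.99% in wild type, so *tyf* lay below wild type without overlap. The part of these in the *Vha* differences was not tested.

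These counts depended on single libraries and on scaling. In *Atx2* RNAi the 5 calls became 2 without ZT0 replicate 1, 0 without ZT0 replicate 2, ZT12 replicate 1 or ZT12 replicate 2, and 3 without wild-type ZT12. With library sizes that leave out *Pdf*, an alternative chosen after seeing the data, there were 0. Of single genes in *Atx2* RNAi, *Vha100-1* and *Vha68-1* stayed called in 5 of 8 fits that left out 1 library, *Vha26* in 3 and *Vha36-1* and *VhaAC45* in 2. In *tyf* the 7 calls became 4 without ZT4 replicate 1, ZT16 replicate 1, ZT16 replicate 2, wild-type ZT4 or wild-type ZT16. There *Vha26* and *Vha68-2* stayed called in 7 of 8, *VhaAC45RP* in 4, *VhaAC45* in 2 and *Vha68-1* in 1. A fit that leaves out a mutant library rests on 1 library for that genotype and time, which is assumed to vary like the others. Scaling by library size alone moved the median of all genes in *tyf* to -0.26 and gave 9 member calls, 8 lower, while the members' median stayed 0.15 below that of all genes under each scaling.

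**Figure D3:**
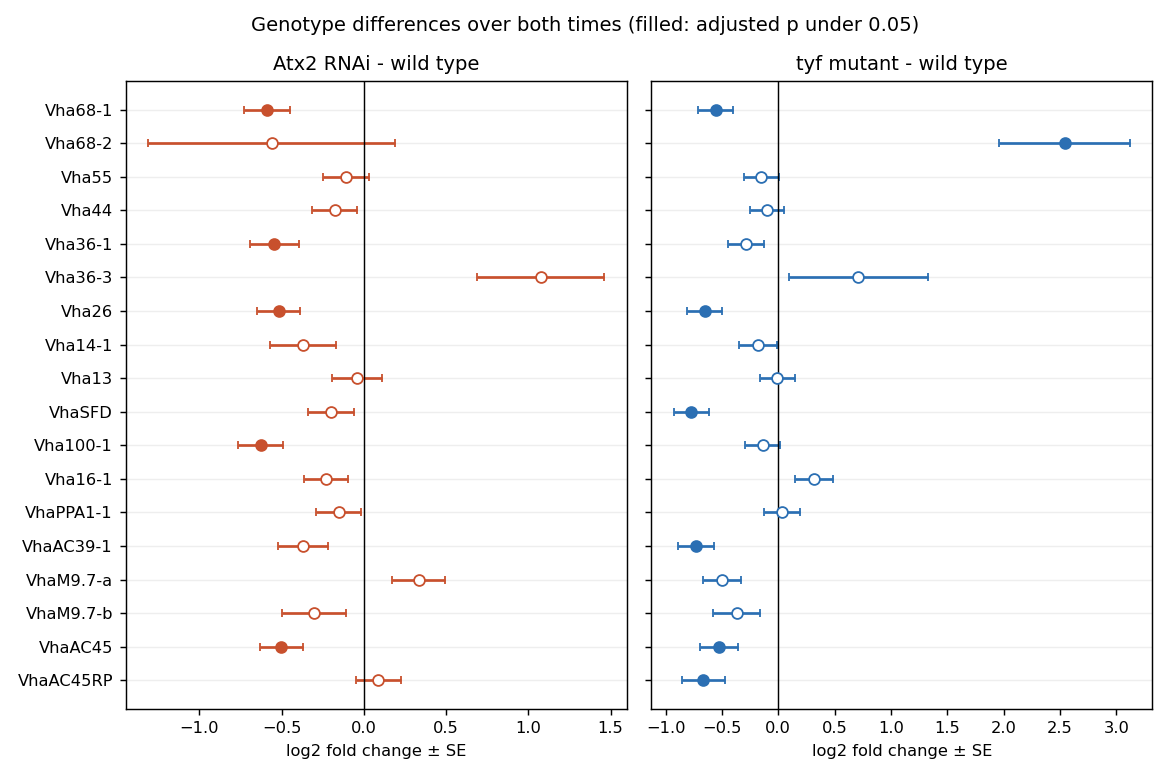
Log2 difference from wild type over both times (± SE, edgeR) for the 18 members described singly, *Atx2* RNAi on the left and the *tyf* mutant on the right, on different horizontal scales. Filled points passed an adjusted p of 0.05. *Vha68-1*, *Vha26* and *VhaAC45* are filled and below 0 on both sides, and *Vha68-2* is above 0 in *tyf*.

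Values of single genes are normalized counts on 1 scale for all 14 libraries. Wild-type values are listed in the order ZT24, ZT2, ZT4, ZT12, ZT14 and ZT16, and mutant values as both libraries of the earlier time followed by both of the later time. Tests used the 8 libraries of each comparison.

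The catalytic A subunit gene *Vha68-1* (chromosome 2L, 13000770 to 13004107 in the BDGP6 assembly) was lower in both mutants. Wild-type *Vha68-1* values were 2758, 3298, 3213, 3179, 3090.0 and 2789. In *Atx2* RNAi *Vha68-1* had 2327, 2164, 1988 and 1827, and in *tyf* 2117, 2399, 2134 and 1880.2. All 8 mutant libraries lay below all 6 wild-type libraries, a separation shown by 2 of 22 members and by 1.94% of all genes. The log2 difference was -0.59 ± 0.14 (SE) in *Atx2* RNAi, a level 33.5% lower (edgeR, BH-adjusted p = 0.015), and -0.56 ± 0.16 in *tyf*, 32% lower (edgeR, BH-adjusted p = 0.028).

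The other gene that separated all mutant from all wild-type libraries was *Vha26*, which codes for the E subunit of the peripheral stalk (chromosome 3R, 5591763 to 5595356). Its normalized counts were 4620.3, 4714, 4464, 4547, 4254 and 4734 in wild type, a mean of 4555 ± 179 (SD, n = 6). *Vha26* had 3602, 3497, 2882 and 2873 in *Atx2* RNAi and 2854, 2717, 3294 and 2838 in *tyf*. The highest mutant library thus stayed below the lowest wild-type library. It was 30.2% lower in *Atx2* RNAi (-0.52 ± 0.13 on the log2 scale, edgeR BH-adjusted p = 0.021) and 36.4% lower in *tyf* (-0.65 ± 0.15, edgeR BH-adjusted p = 0.012). Its partner in the stalk, the G subunit gene *Vha13*, had 4058, 3312, 3898, 4353, 3220.3 and 3729 in wild type. *Vha13* measured 3629, 3681, 3891 and 3443 in *Atx2* RNAi and 3680.2, 3353, 3461 and 3748 in *tyf*, inside the wild-type range in all 8. Its log2 differences of -0.04 ± 0.15 and -0.01 ± 0.16 did not pass the test (edgeR BH-adjusted p = 0.89 and 0.99), with 95% intervals of -0.38 to 0.29 and -0.34 to 0.33.

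Of the rotor stalk, the D subunit gene *Vha36-1* (chromosome 2R, 15541435 to 15542498) had 2569, 2031, 2258, 2311, 1852 and 2406 in wild type. *Vha36-1* values were 1526, 1620.4, 1491 and 1433 in *Atx2* RNAi, all below wild type, and 1471, 1662, 2064 and 1924 in *tyf*, where the ZT16 libraries overlapped it. It was 31.4% lower in *Atx2* RNAi (-0.54 ± 0.15, edgeR BH-adjusted p = 0.03), and the difference in *tyf* was -0.29 ± 0.16 (edgeR BH-adjusted p = 0.24). The F subunit gene *Vha14-1* had 2056, 1239, 1642, 2119.8, 1434 and 1871 in wild type, 1376, 1347, 1493 and 1137 in *Atx2* RNAi and 1167, 1404, 1467 and 1473 in *tyf*. The wild-type spread of *Vha14-1* covered most mutant values, and its log2 differences were -0.37 ± 0.20 and -0.18 ± 0.17 (edgeR BH-adjusted p = 0.24 and 0.51).

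The nucleotide-binding B subunit gene *Vha55* and the C subunit gene *Vha44* passed no test. *Vha55* had 3806, 3474, 3688, 4643, 3711 and 3669 in wild type, 3832, 3937, 3409 and 3461 in *Atx2* RNAi and 3236, 3145, 3747 and 3122 in *tyf*. *Vha44* had 3107, 3076, 2752, 3019, 2793 and 3174 in wild type, 2526, 2985, 2543 and 2663 in *Atx2* RNAi and 2985, 2953, 2672 and 2555 in *tyf*. Both genes overlapped wild type in each mutant. The log2 differences of *Vha55* were -0.11 ± 0.14 and -0.15 ± 0.15, and those of *Vha44* -0.18 ± 0.14 and -0.10 ± 0.15, for *Atx2* RNAi and *tyf* respectively. The 95% intervals were -0.41 to 0.20 and -0.48 to 0.18 for *Vha55* and -0.47 to 0.12 and -0.43 to 0.23 for *Vha44*.

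*VhaSFD*, the H subunit gene (chromosome 2L, 16722883 to 16727826), was the member with the lowest adjusted p in *tyf*. Its values were 2680.3, 2733, 3235, 3236, 3144 and 3457 in wild type. *VhaSFD* had 1710.0, 1983, 1932 and 1818 in *tyf*, all below wild type, and 2795, 2206, 2626 and 2722 in *Atx2* RNAi, where 2 of 4 libraries overlapped it. It was 41.4% lower in *tyf* over both times (-0.77 ± 0.16, edgeR BH-adjusted p = 0.0051) and 44.5% lower at ZT16 (-0.85 ± 0.22, edgeR BH-adjusted p = 0.038), a ZT16 call that was lost without either *tyf* ZT16 library or wild-type ZT14 or ZT16 (adjusted p 0.13 to 0.29). The *Atx2* RNAi difference was -0.20 ± 0.14 (edgeR BH-adjusted p = 0.38). The call over both times held in each of 9 alternative analyses and without each of the 8 libraries in turn, with adjusted p up to 0.033.

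**Figure D4:**
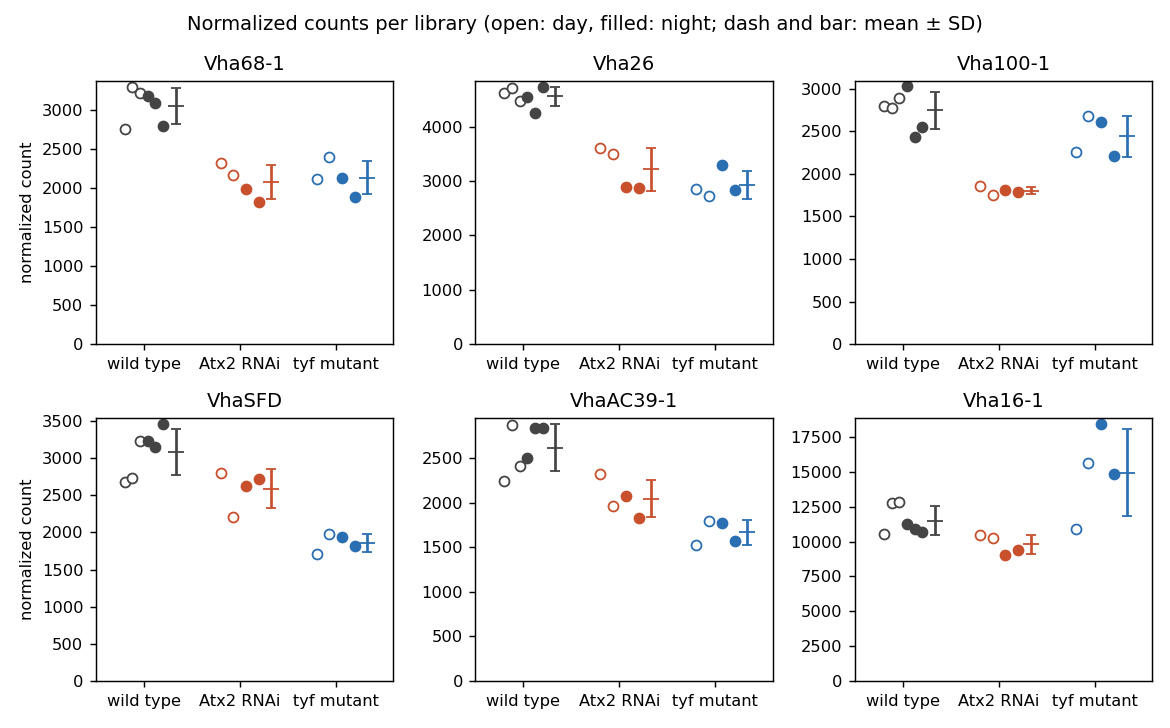
Normalized counts of 6 members in each library, by genotype, with open points for day and filled points for night libraries and a dash with bar for mean ± SD (n = 6, 4 and 4). *Vha68-1* and *Vha26* are below wild type in both mutants, *Vha100-1* is below it in *Atx2* RNAi, *VhaSFD* and *VhaAC39-1* lie lowest in *tyf*, and 3 of 4 *tyf* libraries hold the highest *Vha16-1* values.

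Of the V0 genes, *Vha100-1* (chromosome 3R, 29131193 to 29137980), for the a subunit that forms the proton path, was lower in *Atx2* RNAi. Wild-type libraries had 2793, 2772, 2889, 3025, 2435 and 2547. *Vha100-1* had 1851, 1752, 1809.5 and 1792 in *Atx2* RNAi, a mean of 1801 ± 40.8 (SD, n = 4) against 2743 ± 218 (n = 6), and 2257, 2682, 2612 and 2209.9 in *tyf*. The *Atx2* RNAi libraries formed a tight group below wild type, and the *tyf* libraries overlapped it. The difference was -0.63 ± 0.14 or 35.3% in *Atx2* RNAi (edgeR BH-adjusted p = 0.012) and -0.14 ± 0.16 in *tyf* (edgeR BH-adjusted p = 0.6). The difference between the mutants, -0.44 ± 0.14, did not pass the test (edgeR BH-adjusted p = 0.057).

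The d subunit gene *VhaAC39-1* (chromosome X, 3880748 to 3882967) had 2245, 2875, 2409.5, 2497, 2835 and 2835 in wild type. *VhaAC39-1* values were 1528, 1796, 1772 and 1565 in *tyf*, all below wild type, and 2323, 1959, 2072 and 1826 in *Atx2* RNAi, where 1 library overlapped it. It was 39.8% lower in *tyf* (-0.73 ± 0.16, edgeR BH-adjusted p = 0.0074), a call that held in 9 of 9 alternatives and without each of the 8 libraries (adjusted p up to 0.047). In *Atx2* RNAi the difference was -0.37 ± 0.15 (edgeR BH-adjusted p = 0.12).

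Neither proteolipid gene was called against wild type. *Vha16-1* (chromosome 2R, 6625242 to 6633090) had 10533, 12788, 12842, 11271, 10883 and 10721 in wild type, 10498, 10287, 9008 and 9388 in *Atx2* RNAi and 10906, 15624, 18425 and 14839 in *tyf*. All *Atx2* RNAi values lay below wild type and 3 of 4 *tyf* values above it, although neither difference from wild type passed the test (-0.23 ± 0.13, edgeR BH-adjusted p = 0.27, and 0.32 ± 0.17, edgeR BH-adjusted p = 0.22). The c'' gene *VhaPPA1-1* had 3204, 3299, 3086, 3316, 2759 and 2871 in wild type, 2770.2, 2769, 3126 and 2756 in *Atx2* RNAi and 2551, 3303, 3439.8 and 3163 in *tyf*. Its log2 differences were -0.15 ± 0.14 and 0.04 ± 0.16, with overlapping libraries in each case and 95% intervals of -0.46 to 0.15 and -0.31 to 0.38.

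The e subunit gene *VhaM9.7-a* (chromosome 3L, 4262705 to 4263464) had estimates of opposite sign in the mutants. Wild-type *VhaM9.7-a* values were 3986, 3443, 4269, 4072, 3286 and 3659. It had 5773, 4041, 4637 and 4387 in *Atx2* RNAi and 1897, 2643, 2982 and 3082 in *tyf*, the latter all below wild type. Against wild type neither difference passed the test (0.33 ± 0.16, edgeR BH-adjusted p = 0.19, and -0.50 ± 0.17, edgeR BH-adjusted p = 0.064). The *tyf* difference passed in 6 of 9 alternatives, DESeq2 among them, and without *tyf* ZT4 replicate 2. *VhaM9.7-b* had 1112, 705, 1231, 1111, 682 and 1116 in wild type, 756, 726, 736 and 734 in *Atx2* RNAi and 637, 790.2, 757 and 743 in *tyf*. Its mutant values overlapped the lowest wild-type libraries, ZT2 and ZT14, and its differences of -0.31 ± 0.19 and -0.37 ± 0.21 were not called.

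Of the accessory genes, *VhaAC45* (chromosome 2R, 9207561 to 9209774) was lower in both mutants. It had 4151, 4283, 5328, 6138, 6049.7 and 6088 in wild type. *VhaAC45* values were 3524, 3793, 3723 and 3431 in *Atx2* RNAi, all below wild type, and 2851, 3959, 4317 and 4109 in *tyf*, where the highest value lay above the 2 lowest wild-type values on this scale. On the 8-library scale of the *tyf* comparison the *tyf* values lay below those of wild type. It was 29.4% lower in *Atx2* RNAi over both times (-0.50 ± 0.13, edgeR BH-adjusted p = 0.024) and 41.2% lower at ZT12 alone (-0.77 ± 0.19, edgeR BH-adjusted p = 0.034), and the ZT12 call was lost without any 1 of the 4 *Atx2* RNAi libraries or wild-type ZT12 or ZT14 (adjusted p 0.056 to 0.24). At ZT0 alone the *VhaAC45* difference in *Atx2* RNAi was -0.24 ± 0.18 and did not pass the test (edgeR BH-adjusted p = 0.5). Its interaction of *Atx2* RNAi and time, 0.53 ± 0.26, was not called either (edgeR BH-adjusted p = 0.48). In *tyf* *VhaAC45* was 30.6% lower (-0.53 ± 0.17, edgeR BH-adjusted p = 0.049). *VhaAC45RP* (chromosome 3R, 30164692 to 30166419) had 1791, 1578, 2037, 1478, 1501 and 2177 in wild type, 1744, 1864, 1734 and 1479.7 in *Atx2* RNAi and 1272, 958, 1025 and 1400.3 in *tyf*. It was 36.9% lower in *tyf*, with no overlap (-0.66 ± 0.19, edgeR BH-adjusted p = 0.03), and its *Atx2* RNAi difference was 0.09 ± 0.14 (edgeR BH-adjusted p = 0.72).

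The minor A subunit gene *Vha68-2* (chromosome 2L, 12974322 to 12978607) was the only member called higher in a mutant. It had 34.2, 16.3, 22.6, 3.90, 12.6 and 15.4 in wild type and 14.3, 3.22, 16.2 and 6.18 in *Atx2* RNAi. *Vha68-2* values in *tyf* were 215, 25.6, 109 and 52.7, which overlapped wild type only at ZT24, a library outside the *tyf* comparison. It was 5.81-fold higher in *tyf* (2.54 ± 0.58, edgeR BH-adjusted p = 0.0098), and without *tyf* ZT4 replicate 1, the library with the highest value, the difference was 1.43 (edgeR BH-adjusted p = 0.1). Glial markers moved with it: 5 of the 7 (*Gs2*, *repo*, *nrv2*, *wrapper* and *Eaat1*) were higher in *tyf*, their sum was highest in the same library, and the defining glial factor *repo* had 1.06 to 3.37 TPM in *tyf* and at most 0.56 in wild type. In *Atx2* RNAi, where none of the 4 glial markers tested was called, *Vha68-2* had a difference of -0.56 ± 0.75 (edgeR BH-adjusted p = 0.67). The part of glial RNA in the *Vha68-2* difference was not tested.

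Because the mutants share wild-type libraries, they were also compared directly over both times in a fit of all 14 libraries, a comparison chosen after seeing the data and made at different clock times (ZT0 and ZT12 against ZT4 and ZT16). Of 22 members tested 4 were called, 2 in each direction, against 9.16% of all 9695 genes (4.4% higher and 4.76% lower in *Atx2* RNAi). *VhaM9.7-a* was 1.79-fold higher in *Atx2* RNAi than in *tyf* (0.84 ± 0.16, edgeR BH-adjusted p = 0.0041). Every *Atx2* RNAi library lay above every *tyf* library, a separation whose share over all genes was not counted. The *VhaM9.7-a* call held in 8 of 8 alternatives and without each of the 14 libraries. *VhaSFD* was also higher in *Atx2* RNAi (0.47 ± 0.14, edgeR BH-adjusted p = 0.044). *Vha16-1* was lower in *Atx2* RNAi (-0.60 ± 0.15, edgeR BH-adjusted p = 0.017), as was *Vha68-2* (-3.33 ± 0.70, edgeR BH-adjusted p = 0.0079). The *Vha16-1* call was lost when libraries were scaled by size alone (-0.23, adjusted p = 0.25) or by size excluding *Pdf* (-0.21, adjusted p = 0.29) and without any 1 of the *Atx2* RNAi libraries, *tyf* ZT4 replicate 2 or *tyf* ZT16 replicate 1 (adjusted p 0.068 to 0.099). The *VhaSFD* call was lost without any 1 of the 8 mutant libraries or wild-type ZT14 (0.053 to 0.21) and with no filter on low counts (0.068), and that of *Vha68-2* without *Atx2* RNAi ZT12 replicate 2 or *tyf* ZT4 replicate 1 (0.053 and 0.071). The *Vha68-2* difference was -2.20 without *tyf* ZT4 replicate 1 and -4.01 without *Atx2* RNAi ZT0 replicate 1. Of the 7 glial markers 5 were lower in *Atx2* RNAi than in *tyf* as well. *Vha68-1* and *Vha26* showed mutant differences of -0.04 ± 0.13 and 0.13 ± 0.13 (95% intervals -0.33 to 0.24 and -0.14 to 0.40), neither called.

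Across the day, 1 member was called, the minor D subunit gene *Vha36-3* (chromosome X, 2579091 to 2580560). Wild-type *Vha36-3* had 19.3, 11.3, 1.77, 104, 51.9 and 89.3, so that the 3 night libraries (ZT12 to ZT16) lay above the 3 day libraries. *Atx2* RNAi had 15.3 and 24.2 at ZT0 and 162 and 378 at ZT12. In *tyf* it had 38.7 and 26.6 at ZT4 and 16.2 and 52.7 at ZT16, which overlapped. At ZT12 *Vha36-3* in *Atx2* RNAi differed from wild type by 1.79 ± 0.49 on the log2 scale, which did not pass the test (edgeR BH-adjusted p = 0.053). Leaving out 1 library moved this value between 1.02 (without *Atx2* RNAi ZT12 replicate 2) and 2.37 (without wild-type ZT12), with adjusted p of 0.04 to 0.47, and it passed without wild-type ZT24 or ZT2, by DESeq2 (0.013) and with no filter on low counts (0.0011). *Vha36-3* was 8.67-fold lower in the wild-type day than night (-3.12 ± 0.68, edgeR BH-adjusted p = 0.023, 2.05% of all genes called, 0.877% lower) and 13.8-fold lower at ZT0 than at ZT12 in *Atx2* RNAi (-3.79 ± 0.54, edgeR BH-adjusted p = 0.0037, 4.1% called, 1.64% lower). In *tyf* the difference between ZT4 and ZT16 was -0.05 ± 0.84 with a 95% interval of -1.85 to 1.76. Between these times in *tyf* edgeR called 0 members (0.989% of all genes), and DESeq2 called 0. At an unadjusted p under 0.05 there were 0 members, against 962 of all 9503 genes. The photoreceptor markers *Arr2* and *ninaE* were called lower at ZT4 than at ZT16 in *tyf*, and their part in its *Vha36-3* values was not tested.

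Whether the time difference of *Vha36-3* itself differed between genotypes was tested by interaction terms. For *tyf* against wild type the term was 3.56 ± 1.26 (edgeR BH-adjusted p = 0.64), and for *Atx2* RNAi against wild type -1.42 ± 0.78 (edgeR BH-adjusted p = 0.55). Between *Atx2* RNAi and *tyf* it was -3.69 ± 1.07 (edgeR BH-adjusted p = 0.093), and DESeq2 called it. With 1 library left out the *tyf* term ran from 2.599 (without wild-type ZT4) to 5.20 (without wild-type ZT2), and the *Atx2* RNAi term from -2.001 (without wild-type ZT12) to -0.66 (without *Atx2* RNAi ZT12 replicate 2), none of them called. By edgeR 0 members were called in each of these tests, against 0.0526%, 0.74% and 2.09% of all genes. At an unadjusted p under 0.05 there were 2 of 22, 0 of 19 and 2 of 22 members. Over all genes these counts were 571 of 9503, 970 of 8643 and 1381 of 9695. DESeq2 called 0, 0 and 1 members, without a share counted over all genes. The wild-type call was lost without ZT2, ZT4 or ZT16 (adjusted p = 0.074, 0.064 and 0.06) and in the 6 wild-type libraries alone (0.091), and the *Atx2* RNAi call without ZT12 replicate 2 (0.054). The wild-type log2 difference was -3.93 without ZT24 and -2.43 without ZT4, and that of *Atx2* RNAi was -3.03 without ZT12 replicate 2. Fat body markers moved with the *Atx2* RNAi time difference, since *Yp1* and *Yp2* were also called lower at ZT0, 2 of 5 tested. *Yp1* had 1.63 and 3.01 TPM at ZT0 and 44.15 and 8.32 TPM at ZT12, and the library with the higher *Yp1* level, ZT12 replicate 1, had the lower *Vha36-3* value of that time. In wild type none of the 5 fat body markers was called between day and night. Their part in the *Vha36-3* difference was not tested.

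**Figure D5:**
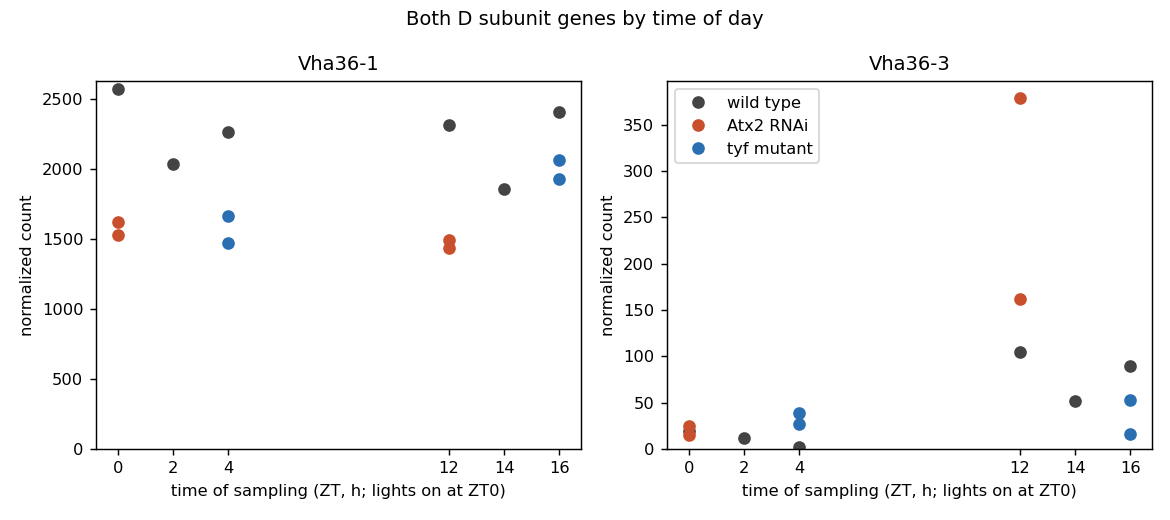
Normalized counts of the D subunit genes *Vha36-1* (left) and *Vha36-3* (right) by zeitgeber time, with 1 point for each library and colours for genotype; wild type of ZT24 is drawn at ZT0. *Vha36-3* is higher at ZT12 to ZT16 than at ZT0 to ZT4 in wild type and *Atx2* RNAi, and its *tyf* values of both times overlap.

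Among the leading genes no time difference was called. *VhaAC45* came nearest to a split by time, with wild-type day libraries at 4151 to 5328 and night libraries at 6049.7 to 6138 (6.3% of all genes separated in this direction), but its difference of -0.41 ± 0.17 did not pass the test (edgeR BH-adjusted p = 0.36). *Vha68-2* separated in the opposite direction at 16.3 to 34.2 in the day and 3.90 to 15.4 at night (6.65% of all genes), with a difference of 1.16 ± 0.77 (edgeR BH-adjusted p = 0.68). The median time difference over the members was 0.05 in wild type and *Atx2* RNAi and -0.04 in *tyf*.

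Of the 15 members with no call and a small share, *VhaM9.7-c* was tested in both mutants (0.51 ± 0.44 in *Atx2* RNAi and -0.53 ± 0.60 in *tyf*). *Vha100-2*, *Vha100-3* and *Vha14-2* passed the filter on low counts only in fits with the *tyf* libraries, with differences of 1.35 ± 0.93, 0.08 ± 1.59 and 0.53 ± 0.96. The other 11 passed in neither fit. *Vha100-2*, like *Vha68-2*, had its highest level in the *tyf* ZT4 replicate 1 library.

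Genes that work with the pump were counted from 3 lists drawn up with earlier results of these data known. Of 13 genes for assembly and regulation of the V-ATPase (*Rbcn-3A* and *Rbcn-3B*, which take part in V1-V0 assembly, *mtd*, *Mitf* and genes of the mTORC1, Rag and Ragulator complexes that sit on the lysosome), 1 was called in each mutant over both times (16.4% of all genes in *Atx2* RNAi and 15.2% in *tyf*), *Lamtor3* in *Atx2* RNAi (0.80, edgeR BH-adjusted p = 0.039) and *Mitf*, a transcription factor for V-ATPase genes in flies, in *tyf* (0.53, edgeR BH-adjusted p = 0.049). Both were higher. *mtd* was higher at ZT0 than at ZT12 in *Atx2* RNAi (0.79, edgeR BH-adjusted p = 0.047). The medians of this list were -0.06 in *Atx2* RNAi and 0.24 in *tyf*.

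Genes of the lysosomal list, among them hydrolases that work at acidic pH, were called in both directions. The list also holds *TppII*, known as a cytosolic peptidase, which was tested and not called in either mutant. In *Atx2* RNAi 4 of 16 tested were higher and 3 lower (16.4% of all genes called), with a median of -0.11. The higher ones were the sterol carrier *Npc2a* (1.86), the hexosaminidase *Hexo1* (1.51) and the cathepsins *cathD* (0.72) and *CtsB* (0.64), and the lower ones were the chloride transporters *ClC-b* (-0.78) and *ClC-c* (-0.72) and the lysosomal efflux protein *spin* (-0.74). In *tyf* 4 of 18 were higher and 4 lower (15.2% of all genes called), with a median of 0.18. *Hexo2* (3.19), *Hexo1* (1.10), *CtsB* (0.94) and *CtsL1* (0.71) were higher there, and *ClC-c* (-1.34), *spin* (-0.89), *CtsF* (-0.58) and *Npc1a* (-0.54) were lower. *CtsB* had 2699.6 to 3753 normalized counts in *Atx2* RNAi, 3030.3 to 3684 in *tyf* and 1413 to 2541 in wild type, so both mutants lay above wild type. The share of all genes with this separation was not counted.

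The list of 5 vesicular transporters holds carriers that fill synaptic vesicles, a process powered by the V-ATPase, and *prt*, a putative one. Of 5 tested, 1 was called in *Atx2* RNAi, lower (16.4% of all genes called, 7.93% lower). In *tyf* 1 was higher and 2 were lower (15.2% of all genes called). *VAChT*, the acetylcholine transporter, had 62.4, 259, 93.5 and 97.3 in *Atx2* RNAi, 245, 154, 144 and 105 in *tyf* and 468, 729, 851, 825, 926 and 522 in wild type, with no overlap. All mutant libraries lay below all wild-type libraries for 1.94% of all genes. *VAChT* was lower in both mutants (-2.56 ± 0.35, edgeR BH-adjusted p = 0.00088, and -2.28 ± 0.24, edgeR BH-adjusted p = 4.5e-05). In *tyf* the GABA transporter *VGAT* was lower (-0.90 ± 0.24, edgeR BH-adjusted p = 0.022) and the glutamate transporter *VGlut* called higher (edgeR BH-adjusted p = 0.033), the latter at 51.3, 22.5, 34.9 and 0 normalized counts against 7.52, 2.66, 0 and 0 in the wild type compared. *VGlut* had a wild-type value of 72.8 at ZT24, above all 4 *tyf* libraries.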

How the data were processed

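Sorted LNvs of 14 fly samples (1 library each) were profiled by RNA sequencing. RNA was extracted from the sorted cells, copied to cDNA, amplified by T7 transcription and sequenced as 50-base single reads. The authors quantified reads with kallisto and deposited, for each library, estimated counts and TPM per transcript. The submitters' processing notes also name DESeq2, and tool versions and the setting for strand are not given in the sources used here. The deposited TPM (transcript abundance divided by length and brought to the same total in each library) comes from the authors' quantification. Reads shared by paralogues or by a gene and its antisense partner were divided by the quantification, which can shift the levels of minor genes.

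Of 30438 transcripts of FlyBase release 6.14, 30191 were matched to genes through the Ensembl release 115 annotation of the BDGP6 assembly, and the 247 unmatched ones held 0.234% of the counts. Both units were summed per gene, and summed estimated counts were rounded to whole numbers. Counts were tested with edgeR 4.0.16 (limma 3.58.1, R 4.3.3) by quasi-likelihood, with TMM scaling, the filterByExpr filter on low counts, group means without a block and BH adjustment over all genes tested. Each mutant fit used 8 libraries with the wild-type pairs given in the report, so that a comparison had 4 residual degrees of freedom. The fit of wild-type day (ZT24, ZT2, ZT4) against night, and of the mutants against each other, used all 14 libraries in 6 groups. Levels of genes within and between subunits were compared in TPM, and differences between samples on counts. The testing code was checked on simulated counts with known changes, of which it found few of the smaller ones and where false calls exceeded the nominal rate. Effective length was taken as transcript length less 49 bases.

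Libraries held 5216112 to 23507263 estimated counts, which limits what can be said of genes near the floor of 3 counts. This floor covers counting error only, since amplified reads are not independent molecules. Per-library values are given for the gene with the highest mean TPM of each subunit, for a second gene with 10% or more of its subunit's TPM, and for any member called in any comparison (18 genes). The other 15 are given by ranges. Members of the pathway lists are given as counts, with values for those called. The members and lists were chosen with earlier results of these data known. The alternatives were DESeq2 1.42.0, its size factors, library size only, no filter or at least 10 counts in every library, an offset for transcript length, a replicate block, other sets of libraries and leaving out each library. Library size excluding *Pdf* and the direct comparisons of *Atx2* RNAi with *tyf* were chosen after seeing the data. No sequences were analysed here.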

Additional observations from a re-analysis of the deposited data

Results flagged for a closer look

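The direct test of *Atx2* RNAi against *tyf* over both times called 4 *Vha* genes whose levels differed between the mutants. Whether their differences from wild type differed was not tested. *VhaM9.7-a* differed by 0.84 on the log2 scale and *VhaSFD* by 0.47, both higher in *Atx2* RNAi. *Vha16-1* differed by -0.60 and *Vha68-2* by -3.33, both higher in *tyf*. The libraries compared were taken at different times of day, so genotype and clock time cannot be told apart in these values. Glial markers were also higher in *tyf*, and their part in the *Vha68-2* value was not tested.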

How the results depend on the processing

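For *Atx2* RNAi at ZT0, DESeq2 and a fit of all 14 libraries with wild type pooled each called 1 member in place of 0. At ZT12 (1 call) there were 4 with DESeq2, 3 with no filter or with all 14 libraries, 2 with DESeq2 size factors, with at least 10 counts in every library, with a length offset or with only the 4 libraries of the comparison, and 0 with library size only or excluding *Pdf*. Over both times the 5 calls of *Atx2* RNAi became 2 with library size only and 0 excluding *Pdf*. For *tyf* at ZT4 (0 calls) there were 5 with DESeq2, 2 with all 14 libraries and 1 with library size only, no filter or a length offset. At ZT16 (1 call) there were 5 with DESeq2, with library size only or excluding *Pdf*, 3 with no filter, a length offset, all 14 libraries or only the 4 libraries, and 2 with at least 10 counts. *Atx2* RNAi against *tyf* (4 calls) gave 7 with library size only or excluding *Pdf*, and the difference of their time differences (0) gave 1 with DESeq2 or no filter. With at least 10 counts in every library *Vha36-3* was not tested, so its time calls in *Atx2* RNAi and in wild type became 0. The wild-type call was also 0 in the 6 wild-type libraries alone. The share of *Vha14-1* in its subunit was 99.5% by counts. Scaling moved the median of all genes to 0.12 in *Atx2* RNAi (excluding *Pdf*) and -0.26 in *tyf* (library size only), and the share of calls that were higher from 51.7% to 65.8% and from 50.2% to 22.7%. Other causes were not tested.

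With 1 library left out, calls ranged from 0 to 4 in *Atx2* RNAi at ZT12, 0 to 5 over both times, 0 to 1 for *Atx2* RNAi time, 0 to 2 in *tyf* at ZT4, 0 to 3 at ZT16, 4 to 7 over both times, 0 to 1 for wild-type time, 1 to 5 for *Atx2* RNAi against *tyf* and 0 to 1 for the difference of their time differences. The *Vha36-3* time difference in *tyf* (-0.05) changed sign with library size only (0.11), excluding *Pdf* (0.083) and with 1 library left out (-0.67 to 1.02).

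Mutant libraries share replicate numbers, but same-numbered libraries did not deviate together (correlations 0.0743 in *Atx2* RNAi and 0.0396 in *tyf*, 1 pair of times each), so they were not treated as pairs. With a replicate block 0 members were called in *Atx2* RNAi at ZT12 and 0 over both times, 1 in *tyf* at ZT4 and 3 over both times, and the *Vha36-3* time difference in *tyf* was 0.14. The *VhaSFD* difference between the mutants was not called with the block (adjusted p = 0.06).

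Of the alternatives other than leaving out a library, 307 of the values for single genes and medians counted as unchanged. Of single genes 26 values lost a call, 24 gained one and 3 changed sign, and 13 medians moved. A single gene counted as unchanged if its direction and side of the threshold held. For a median the shift had to be below 0.139, the median SD between replicates on the log2 scale, whatever its sign. The wild-type time median of 0.048, for example, reached -0.072 among the alternatives. *VhaSFD* and *VhaAC39-1* in *tyf* over both times and *VhaM9.7-a* between the mutants over both times stayed called under every alternative run and without each library. Low counts limit what can be said of the minor paralogues.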
